A study of Arabidopsis thaliana with 4 samples.

Results

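The genes described here encode proteins of photosystem II and of its antenna that are made from the nuclear genome of Arabidopsis thaliana. They were taken as the probe sets that the platform's gene table pairs with 1 gene, on chromosomes 1 to 5, whose gene text holds the words photosystem, chlorophyll A/B, light harvesting or light-harvesting. The gene table used here has no description field, so the words were searched in the gene symbols and synonyms of RefSeq. That search found 52 genes, of which 5 had a single-gene probe set, out of 22810 probe sets on the array. The 5 are LHCB4.1 (AT5G01530, chromosome 5), LHCB4.2 (AT3G08940, chromosome 3), LHCB4.3 (AT2G40100, chromosome 2), PSBW (AT2G30570, chromosome 2) and PSBY (AT1G67740, chromosome 1). The other 47 genes are not paired with a probe set in the table and were not analysed here. The table leaves 8794 probe sets without a gene, so a missing pairing does not show that the array lacks a gene. A search of full descriptions could find more members, and 6 further genes whose symbols name photosystem or antenna functions are therefore given separately below.

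RNA from whole plants of the Columbia-0 accession was hybridised to Affymetrix ATH1 arrays, 1 sample to each. The groups were 2 samples of smg7b, which carries the T-DNA insertion SALK_050115 in the Col-0 background and is titled smg7b-1 in both, and 2 samples of wild-type Col-0. All were seedlings raised in 5 inch pots under constant light at 22 °C and 65% humidity and taken 17 days after germination. Only 1 insertion line was measured, so other changes carried by that line cannot be told apart from its effects. Nothing in the labels ties the replicates to separate plants or pools, and the p-values therefore cover the spread of these samples alone, which may be technical.

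Photosystem II uses light to take electrons from water, and its pigment-binding antenna proteins pass excitation energy to the reaction centre. The inner antenna consists of monomeric chlorophyll proteins, among them CP29, which the LHCB4 genes encode. All of these proteins are imported into the chloroplast, where they assemble with subunits encoded by the plastid genome. In leaves these transcripts are among the abundant ones, and they are known to respond to light, sugars and stress.

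The array gives a signal, an intensity on a linear scale that the authors had scaled to a common level (2% trimmed mean of 100.01 on each array). Changes are differences of log2 signal, smg7b minus wild type, from the moderated test of limma, adjusted after Benjamini-Hochberg over the 13648 probe sets that passed a filter on dim signals, with a threshold of 0.05. The number of arrays limits the precision. With 2 arrays against 2, an exact permutation test of a single probe set cannot give a p below 0.333. Each array's background was taken as its brightest Bacillus control probe set, which lay between 6.42 and 9.21, and 72.0% to 75.5% of the plant probe sets were above it. The targeted gene (AT1G28260, known as SMG7L) read 16.7 and 14.4 in smg7b, against 49.7 and 46.8 in wild type, a log2 change of -1.64 (SE 0.30, adjusted p = 0.00253). Control probe sets for the 2 ends of the Actin transcript gave a 3' to 5' signal ratio of 106 and 57.3 in smg7b, against 17.5 and 41.7 in wild type, so this sign of RNA or labelling quality differed between the genotypes. For GAPDH the ratio was 8.34 and 3.84 in smg7b, against 1.45 and 2.53 in wild type. Both smg7b arrays exceeded both wild-type arrays in each ratio. Genotype and this sign of quality therefore cannot be fully told apart. A call lost on adjusting for the Actin ratio does not show which of them a change goes with.

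Of the 5 photosystem and antenna genes, PSBY fell in smg7b, and the other 4 did not pass the test. Of all tested probe sets 20.3% passed (9.00% lower and 11.3% higher), so 1 of 5 is near the background and is not a result about the genes as a group. All 5 passed the filter on dim signals and were above background on all 4 arrays. Their median log2 change was -0.23, beside -0.01 over all tested probe sets, with 4 of the 5 changes negative. PSBY was the 1 gene of the 5 whose groups did not overlap, against 61.3% of all tested probe sets (31.2% with smg7b lower).

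PSBY encodes a precursor that is cut into small single-helix proteins of photosystem II, which RefSeq lists as PSBY-1 and PSBY-2. Its signal was 1880 and 2260 in smg7b, against 3660 and 3738 in wild type. Both smg7b arrays lay well below both wild-type arrays, and the wild-type arrays differed by a factor of 1.02. The means were 2070 ± 268 in smg7b and 3699 ± 55.3 in wild type (SD, n = 2 each), which is 1.79-fold lower in smg7b. The log2 change was -0.84 (SE 0.26, 95% interval -1.40 to -0.28, adjusted p = 0.0376 in limma). The call was lost in a fit that adjusts for the log2 Actin ratio, which gave -0.72 (SE 0.47, adjusted p = 0.422), and without smg7b replicate 1 (-0.71, adjusted p = 0.479) or smg7b replicate 2 (-0.98, adjusted p = 0.219). It was also lost with a replicate block (adjusted p = 0.0635) and with no filter on dim probe sets (adjusted p = 0.149), where the change itself was the same.

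**Figure D1:**
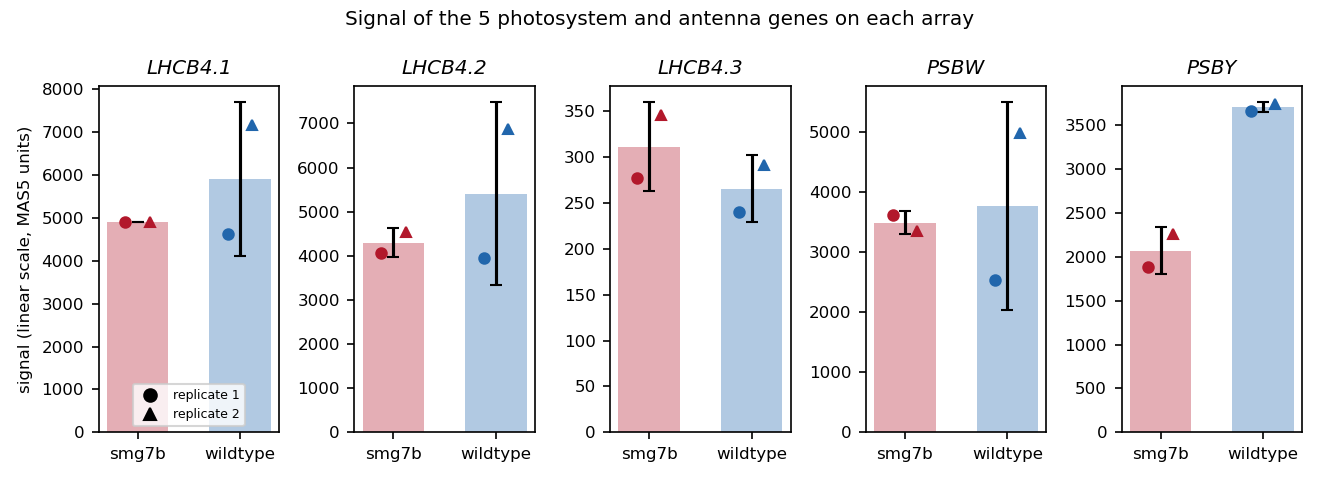
Signal on a linear scale of LHCB4.1, LHCB4.2, LHCB4.3, PSBW and PSBY in smg7b (left, red) and wild type (right, blue). Bars are means, error bars are the SD of 2 arrays, circles are replicate 1 and triangles replicate 2; PSBY is the gene whose groups are apart, while for LHCB4.1, LHCB4.2 and PSBW the smg7b arrays lie between the wild-type arrays.

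PSBW encodes a small reaction-centre subunit of photosystem II that helps to hold the antenna in large supercomplexes. It read 3626 and 3351 in smg7b, against 2538 and 4983 in wild type. Both smg7b signals fell between the wild-type ones, and wild-type replicate 2 was 1.96 times as bright as replicate 1. The log2 change was -0.03 (SE 0.33, 95% interval -0.76 to 0.70, adjusted p = 0.961). This interval runs far to both sides of 0, so the arrays do not show that PSBW was the same in both genotypes.

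The 3 LHCB4 genes encode isoforms of CP29, which sits between the reaction centre and the trimeric light-harvesting complex. LHCB4.1 gave 4894 on each smg7b array, against 4630 and 7162 in wild type. LHCB4.2 gave 4064 and 4532 in smg7b, against 3946 and 6869 in wild type. For both genes the smg7b arrays lay between the wild-type arrays, and wild-type replicate 2 was the brightest of the 4. The log2 changes were -0.23 for LHCB4.1 (SE 0.32, 95% interval -0.94 to 0.47, adjusted p = 0.651) and -0.28 for LHCB4.2 (SE 0.33, 95% interval -1.0 to 0.45, adjusted p = 0.597).

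LHCB4.3 is the isoform known for a shorter protein and for induction under strong light. It read 277 and 345 in smg7b, against 240 and 291 in wild type. The groups overlapped, since wild-type replicate 2 lay above smg7b replicate 1. Its log2 change of 0.23 (SE 0.20, 95% interval -0.22 to 0.67, adjusted p = 0.476) was the 1 positive value among the 5 genes. Each probe set has its own response, so the levels of different genes are not ranked here.

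**Figure D2:**
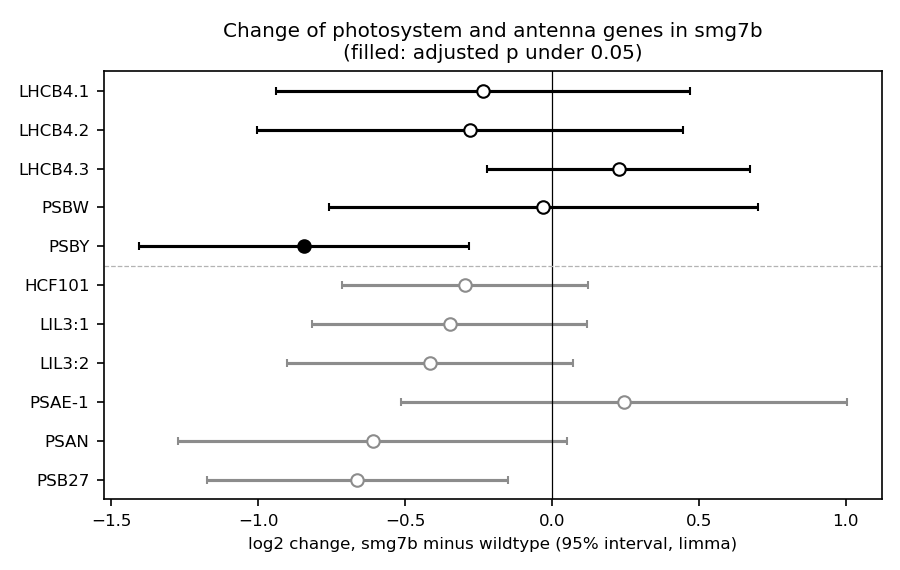
Log2 change in smg7b minus wild type with 95% intervals from limma for the 5 genes (black, above the dashed line) and for 6 genes chosen by symbol (grey). The filled point marks the adjusted p under 0.05, which PSBY alone has; the intervals of the other 4 of the 5 genes include 0.

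The wild-type arrays differed from each other at the bright end of the scale, where 4 of the 5 genes lie. Among the 191 tested probe sets with a mean log2 signal of at least 11, a limit set after the values were seen, wild-type replicate 2 exceeded replicate 1 by a median of 0.54 on the log2 scale, beside 0.02 over all tested probe sets. The smg7b arrays differed by -0.02 (replicate 2 minus 1) among the same bright probe sets. LHCB4.1, LHCB4.2 and PSBW followed that pattern, with wild-type replicate 2 at 1.55, 1.74 and 1.96 times replicate 1. PSBY did not, at 1.02 times, so its close wild-type signals were not typical of bright probe sets on these arrays. Of the 191 bright probe sets 2.09% were called lower and 1.05% higher. The 4 called lower were PSBY, AT1G09310 and a pair of probe sets with no gene name here.

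**Figure D3:**
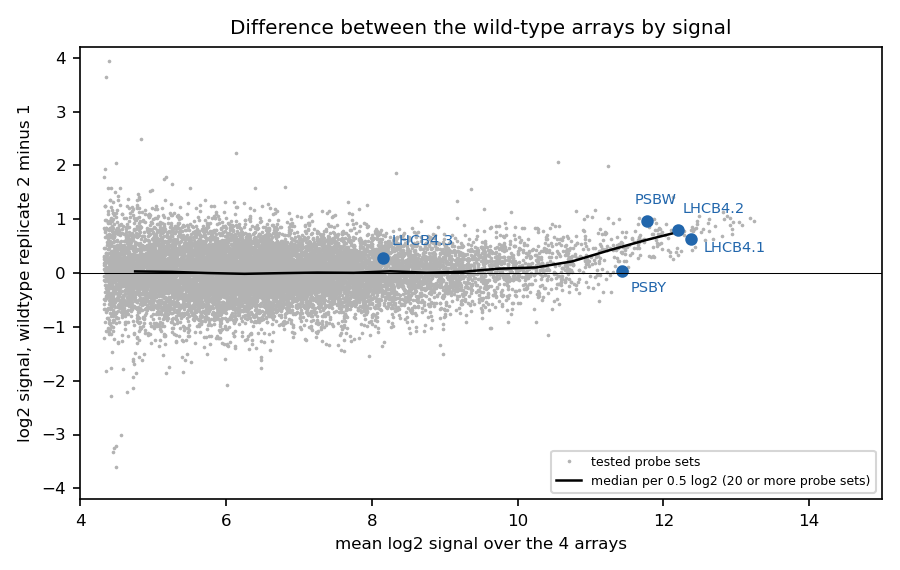
Log2 signal of wild-type replicate 2 minus replicate 1 (vertical) against the mean log2 signal over the 4 arrays (horizontal) for all tested probe sets in grey, with the median in steps of 0.5 as a black line and the 5 genes in blue. The line rises above 0 at high signal, and LHCB4.1, LHCB4.2 and PSBW lie near or above it while PSBY lies at about 0.

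The values of the bright genes moved with the arrays used, with the scaling and with the adjustment for the Actin ratio. That adjustment moved LHCB4.1, LHCB4.2 and PSBW furthest, to -0.74 (SE 0.57), -0.84 (SE 0.55) and -0.88 (SE 0.50), with none of the 3 past the threshold (adjusted p = 0.522, 0.425 and 0.332). Without wild-type replicate 1 the log2 changes were -0.55 for LHCB4.1, -0.68 for LHCB4.2 and -0.52 for PSBW, and all 3 passed the threshold (adjusted p = 0.0249, 0.00393 and 0.0405). Without wild-type replicate 2 they were 0.08, 0.12 and 0.46, and none of the 3 passed (adjusted p = 0.789, 0.676 and 0.0585). Both of these fits used only the spread predicted from signal intensity, shared by all probe sets (13648 degrees of freedom in total, against 11.6 with 4 arrays), and their p-values are too small for genes that vary more. PSBY gave -0.86 without wild-type replicate 1 and -0.83 when replicate 2 was left out instead. Quantile normalization, which gives every array the same distribution of signals, left PSBY at -0.80 (SE 0.20, adjusted p = 0.0132), and cyclic loess at -0.64 (SE 0.20, adjusted p = 0.0400). After cyclic loess LHCB4.1 was at 0.01, LHCB4.2 at -0.04 and PSBW at 0.19, so the signs of LHCB4.1 and PSBW turned.

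**Figure D4:**
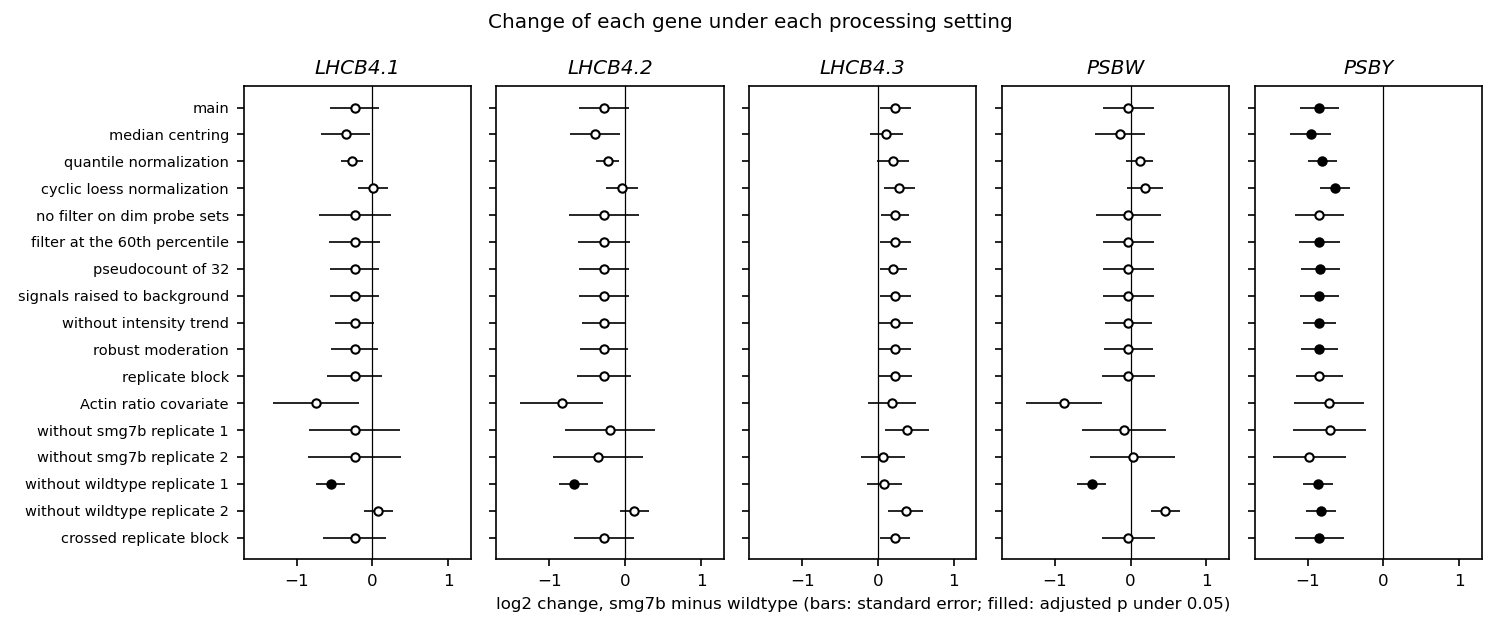
Log2 change of each of the 5 genes, smg7b minus wild type, under every processing setting, with standard errors as bars and filled points for an adjusted p under 0.05. PSBY stays negative throughout, between -0.98 and -0.64, and LHCB4.1, LHCB4.2 and PSBW are lowest with the Actin ratio covariate (-0.74, -0.84 and -0.88) and highest without wild-type replicate 2 (0.08, 0.12 and 0.46).

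PSBY was also compared with the other 4 genes within each array, which removes any factor that is common to the signals of an array. The log2 signal of PSBY minus that of another gene has no meaning as a level, and only its difference between genotypes is given. Both smg7b arrays were lower than both wild-type arrays in this measure against each of the 4 genes. The difference, smg7b minus wild type, was -0.61 against LHCB4.1, -0.56 against LHCB4.2, -0.81 against PSBW and -1.07 against LHCB4.3. Against PSBW, LHCB4.1 and LHCB4.2 the gap between the nearest arrays of the genotypes was smaller than the gap between the wild-type arrays. Each difference is the log2 change of PSBY minus that of the other gene, both given above. All of them reuse the same PSBY signals, and PSBY was the gene whose groups were already apart. They are therefore not separate evidence for its fall, and no test was run on them.

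Among genes named on the array, 6 others carry symbols of photosystem or antenna-like proteins without the searched words in their synonyms, and they were chosen after their values were seen. None of the 6 passed the test in limma, beside 20.3% of all tested probe sets, and 5 of the 6 changes were negative. PSB27, a lumenal factor in assembly and repair of photosystem II, read 1653 and 1588 in smg7b, against 2612 and 2518 in wild type. Its groups were apart and its arrays close within each genotype, with a log2 change of -0.66 (SE 0.23, adjusted p = 0.0670). PSB27 passed after median centring (-0.78, adjusted p = 0.0372) and after quantile normalization (-0.59, adjusted p = 0.0346), and did not after cyclic loess (-0.48, adjusted p = 0.106), with a replicate block (adjusted p = 0.119) or when adjusted for the Actin ratio (adjusted p = 0.427).

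PSAN, a lumenal subunit of photosystem I near the plastocyanin docking site, read 2463 and 2879 in smg7b, against 3184 and 5190 in wild type. The log2 change was -0.61 (SE 0.30, adjusted p = 0.182). It passed after quantile normalization (-0.52, adjusted p = 0.0380) and did not after median centring (-0.73, adjusted p = 0.106) or cyclic loess (-0.40, adjusted p = 0.205), and it was -0.96 without wild-type replicate 1 against -0.26 with wild-type replicate 2 left out. PSAE-1, a subunit on the stromal side where ferredoxin docks, read 6533 and 5623 in smg7b, against 3834 and 6834 in wild type. Its groups overlapped and its log2 change was 0.24 (SE 0.35, adjusted p = 0.664), a sign that turned without wild-type replicate 1 (-0.17) and when adjusted for the Actin ratio (-0.56). The light-harvesting-like genes LIL3:1 and LIL3:2 gave -0.35 (SE 0.21) and -0.42 (SE 0.22), and HCF101, a factor for iron-sulphur clusters of photosystem I, gave -0.30 (SE 0.19), with adjusted p of 0.282, 0.215 and 0.308.

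Chlorophyll is needed for antenna proteins to accumulate, and the genes of its synthesis were listed by locus beside the photosystem genes. This list and those that follow were chosen with earlier results of these data known. Their counts beside the share of all tested probe sets are therefore not independent comparisons. Of 24 listed genes 8 had a single-gene probe set, all 8 were tested, 4 fell and 0 rose in limma, beside 9.00% of all tested probe sets called lower. All 8 log2 changes were negative, with a median of -0.68 beside -0.01 over all tested probe sets, and the sign of each tested gene held under all alternatives. Adjusting for the Actin ratio cut the calls over all tested probe sets as well, from 1228 lower to 378. The count of 4 depended on single arrays, on that adjustment and on model settings. With all 4 arrays it was 1 (PORB) with no filter on dim probe sets and 1 (PORB) without the intensity trend. It was 0 without smg7b replicate 1, 0 when adjusted for the Actin ratio, and 1 (CHLI2) without smg7b replicate 2.

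PORB, which encodes the light-dependent protochlorophyllide oxidoreductase B, read 1055 and 1290 in smg7b, against 2606 and 2326 in wild type. The groups were far apart, with a log2 change of -1.08 (SE 0.24, adjusted p = 0.00779). PORB no longer passed with smg7b replicate 1 left out (-0.93, adjusted p = 0.241), with smg7b replicate 2 left out (-1.22, adjusted p = 0.0764) and when adjusted for the Actin ratio (-0.78, adjusted p = 0.280). CHLM, the methyltransferase that follows insertion of magnesium, read 919 and 841 in smg7b, against 1467 and 1369 in wild type, and fell by 0.69 on the log2 scale (SE 0.21, adjusted p = 0.0391). That call was lost in 7 of 16 alternatives, with adjusted p from 0.0549 without the intensity trend to 0.309 without smg7b replicate 2, cyclic loess (0.0657), no filter (0.0811), the replicate block (0.0671), the Actin adjustment (0.306) and the fit without smg7b replicate 1 (0.278) lying between. CHLI2, an isoform of a magnesium chelatase subunit, read 136 and 201 in smg7b, against 268 and 282 in wild type, and fell by 0.73 (SE 0.22, adjusted p = 0.0360). Without smg7b replicate 1 CHLI2 gave -0.45 (adjusted p = 0.435) and adjusted for the Actin ratio -0.47 (adjusted p = 0.459), and its call was also lost with no filter (adjusted p = 0.0527) and without the intensity trend (adjusted p = 0.0744).

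HEME2, a uroporphyrinogen decarboxylase gene, read 301 and 364 in smg7b, against 801 and 462 in wild type. Its wild-type arrays differed widely, and its log2 change of -0.88 (SE 0.26, adjusted p = 0.0313) was -0.48 without wild-type replicate 1 (adjusted p = 0.106) and -0.08 when adjusted for the Actin ratio (SE 0.33, adjusted p = 0.937). The HEME2 call also ended when either smg7b array was left out (adjusted p = 0.283 without replicate 1 and 0.0850 without replicate 2), with no filter (0.0587) and without the intensity trend (0.0680). The members that did not pass ranged from -0.67 for HEMA2 (SE 0.27) and -0.51 for GSA1 (SE 0.21) to -0.34 for HEMB1 (SE 0.21) and -0.25 for HEME1 (SE 0.21). NOL, a chlorophyll b reductase gene and the 1 tested gene of 7 listed for chlorophyll breakdown, read 112 and 139 in smg7b, against 235 and 222 in wild type. It fell by 0.87 (SE 0.20, adjusted p = 0.0104), a call lost without smg7b replicate 1 (adjusted p = 0.174) and when adjusted for the Actin ratio (-0.62, adjusted p = 0.280).

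**Figure D5:**
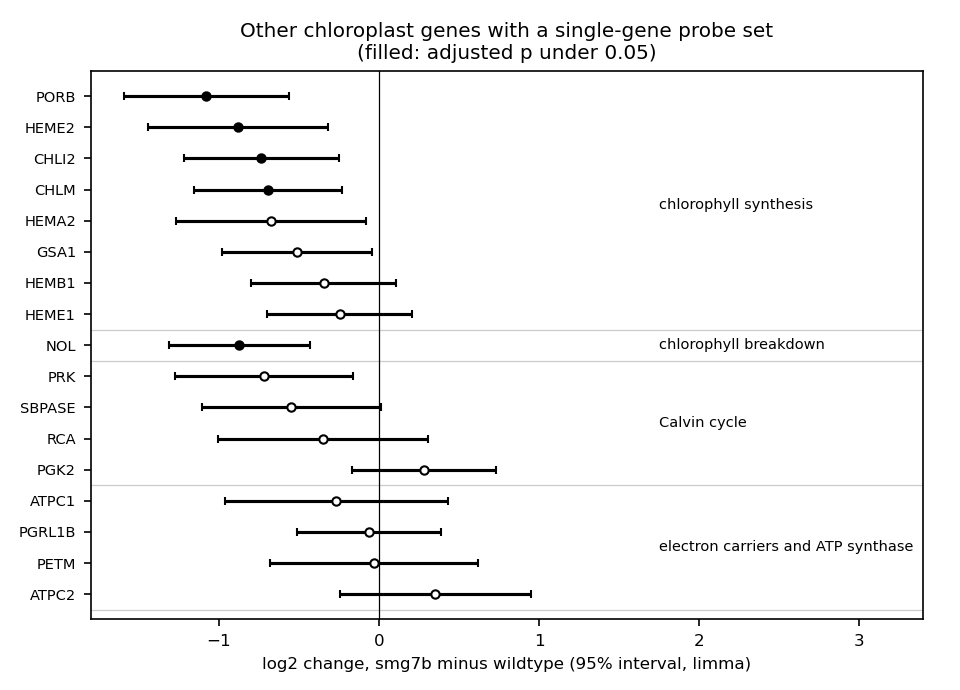
Log2 change in smg7b minus wild type, with 95% intervals from limma, for the tested genes of chlorophyll synthesis, chlorophyll breakdown, the Calvin cycle and the electron carriers with ATP synthase. Filled points have an adjusted p under 0.05: PORB, HEME2, CHLI2, CHLM and NOL, all lower in smg7b.

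The Calvin cycle, which fixes carbon with the products of the light reactions, had 4 tested genes of 23 listed. In limma 0 of the 4 passed, beside 20.3% of all tested probe sets, so with so few genes the count is not a result about the list. Their median log2 change was -0.45, beside -0.01 over all tested probe sets. PRK, the kinase that regenerates the acceptor of carbon dioxide, gave -0.72 (SE 0.25, adjusted p = 0.0680), and SBPASE, a phosphatase of the cycle, gave -0.55 (SE 0.26, adjusted p = 0.159). PRK passed after median centring (adjusted p = 0.0403) and after quantile normalization (adjusted p = 0.0223), and did not after cyclic loess (-0.52, adjusted p = 0.0814), with no filter (adjusted p = 0.210), with a replicate block (adjusted p = 0.109) or when adjusted for the Actin ratio (adjusted p = 0.472). RCA, the Rubisco activase gene, gave -0.35 (SE 0.30) and PGK2, a phosphoglycerate kinase gene, 0.28 (SE 0.21).

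Electron carriers and ATP synthase had 4 tested genes of 15 listed. Again 0 of the 4 passed, beside 20.3% of all tested probe sets, which is not a result about the list. The median log2 change was -0.05, beside -0.01 over all tested probe sets. ATPC2 and ATPC1, which encode gamma subunits of the chloroplast ATP synthase, gave 0.35 (SE 0.27) and -0.27 (SE 0.32). PETM, a small subunit of the cytochrome b6f complex, gave -0.03 (SE 0.30) and PGRL1B, a factor of cyclic electron flow, -0.06 (SE 0.21). The lists for antenna import and phosphorylation, for regulators of photosynthesis genes and for senescence had no single-gene probe set and were not analysed here.

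The tissue markers that could be read were few. RCA, a gene of leaf mesophyll, read 4436 and 4187 in smg7b, against 4746 and 6341 in wild type. It was bright on all 4 arrays, with a log2 difference of -0.35 (SE 0.30, adjusted p = 0.455 in limma). PYK10, a root gene, read 402 and 513 in smg7b, against 327 and 363 in wild type, a log2 difference of 0.40 (SE 0.20, adjusted p = 0.193). The other root markers with a probe set, PER57 and EXPA7, were too dim to be tested. PER57 was above background on 0 arrays and EXPA7 on 1. Their means lay the other way, at 1.06 in smg7b against 1.65 in wild type for PER57 and 2.80 against 10.7 for EXPA7. The guard cell gene FAMA gave 0.17 (SE 0.24, adjusted p = 0.662). In whole plants, fewer green cells and less RNA of a gene per cell cannot be told apart, and the part of tissue make-up in the results was not tested.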

How the data were processed

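The authors deposited a linear signal intensity for every probe set on every array. MAS5 and GCOS are named in the submitters' processing notes, version not given in the sources used here. Genotype and replicate number came from the sample titles. The 64 control probe sets were left out, leaving 22746. Log2 was taken of the signals as deposited, and probe sets at or above the 40th percentile of mean log2 signal (4.32), 13648 in all, were tested with limma 3.58.1 in R 4.3.3 (lmFit, then eBayes with an intensity trend, genotype as the only term, all 4 arrays).

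The platform table pairs 13513 probe sets with 1 gene and 503 with several, and leaves 8794 unnamed here. Of the 13513, 13436 were matched to RefSeq (TAIR10.1) by gene identifier. The member rule asks for gene descriptions, and only symbols and synonyms were at hand. No build is named in the labels, so no coordinates are given.

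The members and gene lists were chosen with earlier results of these data known. The lists were written from memory by locus and not compared with any database. The rule for named genes was every member, the tested genes of the other lists that passed, and up to 2 highest and 2 lowest of each list. Genes chosen by symbol were an exception, as were HEMA2 and GSA1 of the chlorophyll synthesis list. The analysis was tested on simulated data. Deviations of same-numbered arrays from their group means had a weak correlation of -0.15 across tested probe sets. With 2 arrays in each group the deviations of replicate 2 mirror those of replicate 1. The correlation therefore cannot show whether replicate numbers pair the samples. Alternatives were other normalizations, filters, a pseudocount of 32, a floor at background, other moderation, replicate blocks, the Actin ratio as a covariate and each array left out.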

Additional observations from a re-analysis of the deposited data

How the results depend on the processing

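PSBY kept its negative sign in all 16 alternatives and its call in 11. Those 11 include the fits without a wild-type array, whose p-values are too small. Several others changed the test and left the log2 change at -0.84. In limma the call was lost with no filter on dim probe sets (adjusted p = 0.149), with a replicate block (0.0635) and when adjusted for the Actin ratio (0.422). It was also lost without smg7b replicate 1 (-0.71) or smg7b replicate 2 (-0.98). The number of the 5 genes called lower was therefore 0 with no filter on dim probe sets, 0 with the replicate block, 0 when adjusted for the Actin ratio, and 0 to 4 when 1 array was left out. None was called higher under any alternative. Their median log2 change was 0.011 after cyclic loess, -0.74 when adjusted for the Actin ratio and -0.55 to 0.12 when 1 array was left out. Over all probe sets, adjusting for the Actin ratio left 869 called higher and 378 lower, and leaving out 1 array gave 720 to 2291 higher and 260 to 2034 lower. A crossed replicate block, added after seeing the data, called 2103 higher and 1885 lower, and the block by replicate number 1402 higher and 1086 lower. After median centring 1274 were called higher and 1742 lower, against 1543 and 1228, since that scaling moved the median change of all tested probe sets to -0.13. Chlorophyll synthesis genes called lower numbered 1 with no filter, 1 without the intensity trend, 0 when adjusted for the Actin ratio and 0 to 5 with 1 array left out. Signs turned for LHCB4.1 (0.011) and PSBW (0.19) after cyclic loess, for PSBW after quantile normalization (0.12), for PETM after quantile normalization (0.0054) and cyclic loess (0.21), and, adjusted for the Actin ratio, for PSAE-1 (-0.56) and PGRL1B (0.15). With 1 array left out the changes ran from -0.55 to 0.080 for LHCB4.1, -0.68 to 0.12 for LHCB4.2, -0.52 to 0.46 for PSBW, -0.17 to 0.66 for PSAE-1, -0.64 to 0.11 for ATPC1, -0.23 to 0.17 for PETM and -0.25 to 0.13 for PGRL1B. The cause was not tested. Fits with the Actin covariate or without a wild-type array gave p-values that are too small for variable probe sets. A missing call does not show an unchanged gene, since 2 arrays a genotype leave wide intervals.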
